A study of Rattus norvegicus with 12 samples.

Results

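The genes described here are 41 genes of fatty acid breakdown: enzymes and carriers of fatty acid oxidation in mitochondria and peroxisomes, genes of ketone body metabolism, and other targets of the nuclear receptor PPARalpha. They were chosen by name, and each was read from the brightest of its array probes, identified by the RefSeq transcript a probe was designed against. A gene was kept where its probe exceeded background clearly on every array of some group, which held for 40 of the 41 genes and for 20359 genes or transcripts in all. The exception was Abcd2, a peroxisomal fatty acid transporter, whose only probe was not well above background on any array.

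RNA came from liver cells of male Sprague Dawley rats, that is, primary hepatocytes thawed from cryopreserved stock. After 24 h of preculture they received DMSO, the solvent, or 30 µM of a chlorinated diphenyl ether for 24 h more. The compounds were triclosan, an antibacterial phenol, diclosan, which has the same phenol with fewer chlorine atoms, and 1-chloro-3-(4-chlorophenoxy) benzene, here CCPB, which has no hydroxyl group. The series compares triclosan with structurally similar chemicals at this dose and time, with 3 single-colour Agilent arrays per group from 3 experiments described as independent. The labels do not say whether the cells came from the same donor lot, so the p-values measure the spread between these cultures. No animal was dosed, and plated hepatocytes lose part of their metabolic programme in culture.

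Fatty acids enter the hepatocyte through carriers, are bound by fatty acid binding protein and are activated to acyl-CoA. Long chains reach the mitochondrial matrix through the carnitine shuttle, whose entry step, carried by Cpt1a, is the main control point of oxidation. Each round of mitochondrial beta-oxidation dehydrogenates, hydrates, oxidises and cleaves the chain, electrons leave through the electron transfer flavoprotein, and surplus acetyl-CoA becomes ketone bodies in the liver. Peroxisomes shorten very long and branched chains with enzymes of their own. PPARalpha, bound by fatty acids and by fibrate drugs, pairs with RXR and raises many of these genes in rodent liver during fasting.

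All levels below are log2 intensities relative to the 75th percentile of the same array, so a difference of 1 is a doubling, and they do not order genes by abundance, since each probe has its own response. A gene is said to have risen or fallen where the Benjamini-Hochberg adjusted p of limma, taken over all 20359 genes or transcripts, was under 0.05. Slide matters for every value with CCPB. All DMSO and triclosan arrays and diclosan replicates 1 and 2 were on slide 1, and all CCPB arrays and diclosan replicate 3 were on slide 2, so CCPB shares no slide with DMSO or triclosan. Differences of members between CCPB and DMSO are therefore also given with slide as a block, a fit in which the slide effect is set by the difference of diclosan replicate 3 from the other two diclosan arrays. Per array, 51.6% to 55.5% of probes exceeded background clearly, with 0 saturated spots. Of 16 hepatocyte markers, albumin and transthyretin among them, all 16 were measured. Their summed linear level, with the 75th percentile as 1, was 2591 to 2695 with DMSO and 2666 to 2725 with CCPB. Of the 16, 6 rose and 1 fell with CCPB, with a median difference of 0.069, or 1 and 0 with slide as a block. Of all genes tested, 14.3% rose and 14.0% fell with CCPB, or 1.66% and 1.80% with slide as a block.

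Many of the members rose with CCPB, and none passed the test against DMSO with triclosan or diclosan. With CCPB, 22 of 40 members were higher than with DMSO and 0 were lower, where 14.3% of all genes tested were higher and 14.0% were lower. The rises were small, from 1.09-fold to 1.36-fold, and were largest for Cpt1a, Cpt2, Creb3l3, Pex11a, Plin2 and Slc27a2. The median difference over the 40 members was 0.14, against 0.0054 over all genes tested, and 33 of the 40 lay above 0. In 25 of 40 members the CCPB and DMSO arrays did not overlap, as in 50.1% of all genes. Under the slide block, 8 members were higher with CCPB and 0 lower, where 1.66% of all genes were higher and 1.80% lower, and the median member difference was 0.21. Of the 22, 6 were also among these 8, namely Cpt1a, Cpt2, Eci1, Pecr, Abcd3 and Creb3l3. With arrays centred on their median in place of the 75th percentile, 7 members were higher and 0 lower, and calls fell over all genes too, from 28.3% to 16.3% in either direction. With no filter on dim probes, 11 members were higher and 0 lower, where 7.19% of the 38986 genes or transcripts then tested passed in either direction.

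**Figure D1:**
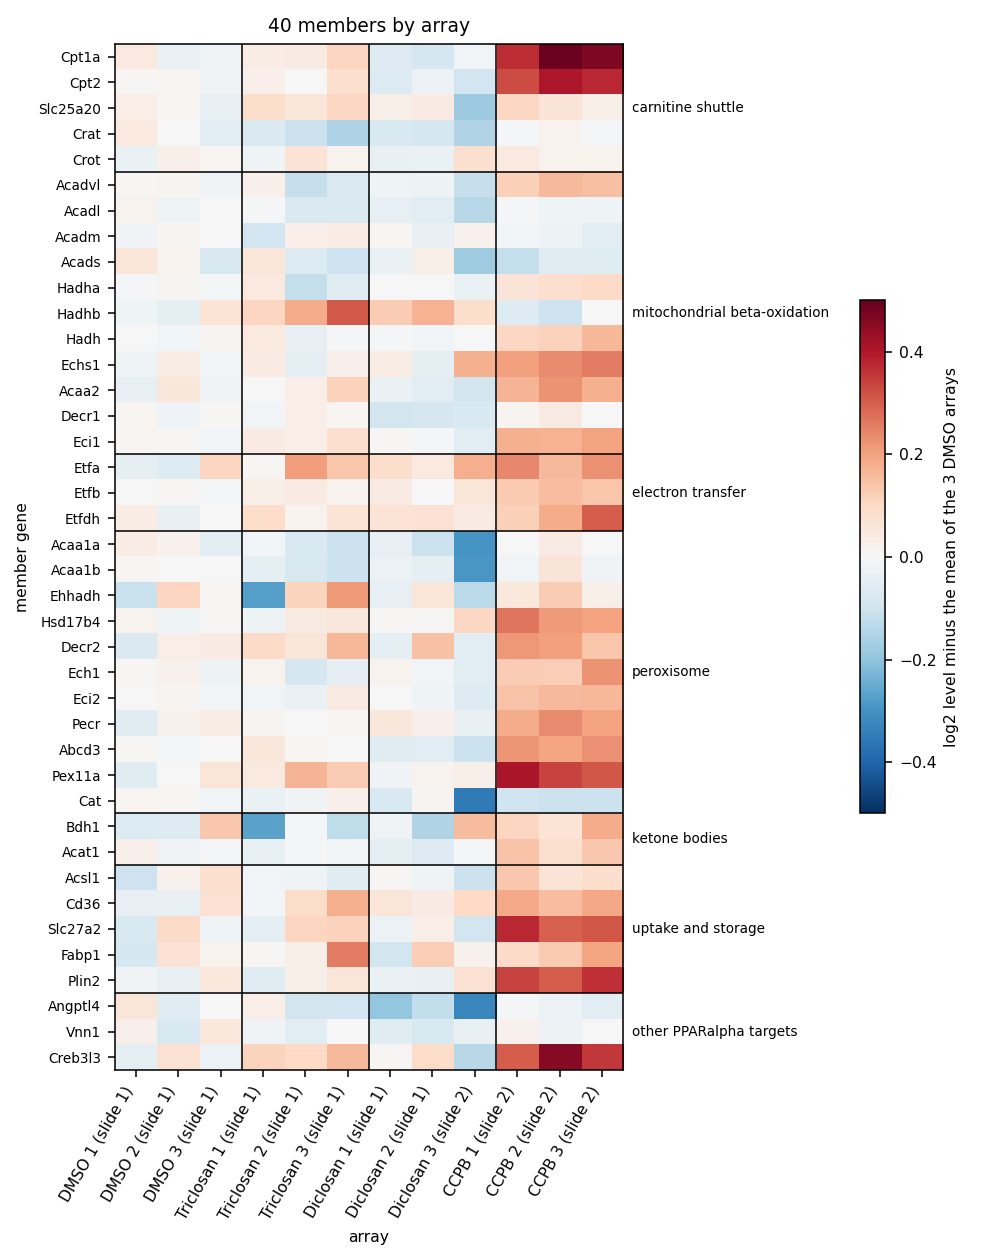
Heat map of 40 members (rows, grouped by role) over the 12 arrays (columns, with their slide), coloured by the log2 level minus the mean of the 3 DMSO arrays. The CCPB columns are red for most rows, most strongly for Cpt1a, and diclosan replicate 3, the other array of slide 2, is blue for Cat, Acaa1a and Acaa1b.

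With triclosan, 0 of 40 members passed the test against DMSO (0.0639% of all genes did), and 3 had an unadjusted p under 0.05, as did 11.6% of all genes. With diclosan the count was also 0 (0.00982% of all genes), with 7 at an unadjusted p under 0.05 (10.6% of all genes). Arrays did not overlap for 8 members with triclosan (19.0% of all genes) and 10 with diclosan (16.1%). The median member difference from DMSO was 0.010 with triclosan and -0.023 with diclosan. Single differences ran from -0.13 to 0.20 with triclosan and from -0.21 to 0.13 with diclosan, and the 95% interval of a member reached a median of 0.099 to either side. A rise of the size of Cpt1a with CCPB therefore lay outside the interval of Cpt1a with triclosan, 0.061 (95% interval -0.034 to 0.16), and with diclosan, -0.054 (95% interval -0.15 to 0.042).

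The carnitine shuttle carried the largest rise among the members. Cpt1a, carnitine palmitoyltransferase of the outer mitochondrial membrane, was at 1.37, 1.29 and 1.31 with DMSO, 1.36, 1.36 and 1.43 with triclosan, 1.26, 1.24 and 1.31 with diclosan and 1.69, 1.81 and 1.79 with CCPB. The CCPB arrays were apart from all 9 others, and the DMSO arrays overlapped with those of both phenols. Cpt1a was 1.36-fold higher with CCPB than with DMSO, a difference of 0.44 (95% interval 0.35 to 0.54) with adjusted p = 0.000129. In the fit with slide, it was 0.38 (adjusted p = 0.0311). Cpt2, which returns the acyl group to CoA inside the matrix, was at 4.54, 4.55 and 4.52 with DMSO, 4.56, 4.54 and 4.62 with triclosan, 4.47, 4.51 and 4.44 with diclosan and 4.86, 4.94 and 4.92 with CCPB. Its CCPB arrays again stood above the rest, and the rise was 1.29-fold, 0.37 (95% interval 0.29 to 0.45), with adjusted p = 0.000129 and 0.42 with slide as a block (adjusted p = 0.0112).

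The other shuttle members did not pass without the slide term. Slc25a20, the carrier that exchanges acylcarnitine for carnitine across the inner membrane, differed by 0.065 between CCPB and DMSO (adjusted p = 0.41). It passed with slide as a block, at 0.28 (adjusted p = 0.0375), where diclosan replicate 3 was at 2.81 and replicates 1 and 2 at 3.01 and 3.03. Crat, carnitine acetyltransferase, differed from DMSO by -0.11 with triclosan and -0.11 with diclosan, at adjusted p = 0.305 and 0.386. With CCPB it differed by 0.0024 (adjusted p = 0.969), or 0.072 with slide as a block (adjusted p = 0.608). Crot, the carnitine octanoyltransferase of peroxisomes, differed from DMSO by 0.022, 0.0025 and 0.028 with triclosan, diclosan and CCPB, the last at -0.088 with slide as a block.

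In mitochondrial beta-oxidation, 5 of 11 members rose with CCPB and 1, Eci1, also passed with slide as a block. Eci1, the isomerase that moves the double bond of unsaturated chains, was at 4.43, 4.43 and 4.42 with DMSO, 4.47, 4.46 and 4.51 with triclosan, 4.43, 4.42 and 4.37 with diclosan and 4.60, 4.60 and 4.63 with CCPB. Its CCPB arrays lay above all others, with a difference of 0.18 (95% interval 0.12 to 0.25) from DMSO, adjusted p = 0.00238, and 0.24 with slide as a block (adjusted p = 0.0339). Acaa2, the matrix thiolase that cleaves off acetyl-CoA, was at 3.86, 3.96 and 3.88 with DMSO, 3.90, 3.93 and 4.01 with triclosan, 3.87, 3.85 and 3.81 with diclosan and 4.07, 4.12 and 4.08 with CCPB. Its groups did not overlap between CCPB and any other, and it rose by 0.19 (adjusted p = 0.00852), with 0.24 and adjusted p = 0.118 with slide as a block.

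Echs1, the short-chain enoyl-CoA hydratase, was at 5.90, 5.96 and 5.91 with DMSO, 5.97, 5.88 and 5.95 with triclosan, 5.96, 5.88 and 6.10 with diclosan and 6.13, 6.16 and 6.18 with CCPB. Diclosan replicate 3 lay closer to the CCPB arrays of its slide than to the other diclosan arrays. The rise of 0.23 (adjusted p = 0.0118) became 0.05 with slide as a block (adjusted p = 0.755), so slide and compound cannot be told apart for Echs1. For every other member, too, CCPB and DMSO share no slide, and only diclosan replicate 3 serves to separate slide from compound. Acadvl, the very-long-chain acyl-CoA dehydrogenase, rose by 0.14 and Hadh, the hydroxyacyl-CoA dehydrogenase of shorter chains, by 0.13, with adjusted p = 0.032 and 0.0194. With slide as a block, their values were 0.24 and 0.12, at adjusted p = 0.106 and 0.339.

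The medium-chain step did not move detectably. Acadm, the medium-chain acyl-CoA dehydrogenase, was at 3.67, 3.70 and 3.69 with DMSO, 3.59, 3.72 and 3.72 with triclosan, 3.69, 3.64 and 3.71 with diclosan and 3.67, 3.66 and 3.64 with CCPB. All groups overlapped, and the difference of CCPB from DMSO was -0.031 (95% interval -0.12 to 0.059), or -0.07 with slide as a block. Acadl and Acads, the long- and short-chain dehydrogenases, differed by -0.017 and -0.08, and Decr1, the reductase of unsaturated chains, by 0.018, none past the threshold. With slide as a block, Acadl, Acads and Decr1 were at 0.07, 0.10 and 0.0065, with adjusted p = 0.542, 0.651 and 0.965. Decr1 was lower with diclosan than with CCPB, by -0.10 (adjusted p = 0.0394, and 0.219 with slide as a block).

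Hadha and Hadhb encode the subunits of the mitochondrial trifunctional protein, and only 1 of them passed any test. Hadhb, the thiolase subunit, was at 2.08, 2.06 and 2.17 with DMSO, 2.21, 2.29 and 2.41 with triclosan, 2.23, 2.28 and 2.19 with diclosan and 2.04, 2.0 and 2.11 with CCPB. Every triclosan and diclosan array lay above every DMSO and CCPB array. Against CCPB it was 1.19-fold higher with triclosan and 1.14-fold higher with diclosan, with adjusted p = 0.0128 and 0.0491, and with slide as a block adjusted p = 0.409 and 0.362. Against DMSO its difference was 0.20 (95% interval 0.076 to 0.32) with triclosan (adjusted p = 0.226) and 0.13 (95% interval 0.0069 to 0.25) with diclosan (adjusted p = 0.447). Between CCPB and DMSO it was -0.057, or 0.0071 with slide as a block, and neither passed. Hadha, the subunit with hydratase and dehydrogenase activity, differed from DMSO by -0.044, -0.013 and 0.081 with triclosan, diclosan and CCPB, and none passed, nor did the 0.11 with CCPB under the slide block. Of its 3 probes, the dimmest differed by -0.081 between CCPB and DMSO and the other two by 0.086 and 0.081.

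The electron transfer genes were 3 of 3 higher with CCPB, and 0 of 3 with slide as a block. Etfb, the beta subunit of the electron transfer flavoprotein, was at 5.56, 5.56 and 5.55 with DMSO, 5.59, 5.60 and 5.58 with triclosan, 5.60, 5.56 and 5.62 with diclosan and 5.69, 5.71 and 5.70 with CCPB, a rise of 0.14 (95% interval 0.077 to 0.20) with adjusted p = 0.00644. Etfdh, the oxidoreductase that passes the electrons to ubiquinone, was at 2.29, 2.22 and 2.26 with DMSO, 2.35, 2.27 and 2.32 with triclosan, 2.32, 2.33 and 2.30 with diclosan and 2.37, 2.44 and 2.56 with CCPB, a rise of 0.20 with adjusted p = 0.0121. In both genes the lowest CCPB array was above every other array. Etfa, the alpha subunit, rose by 0.21 (adjusted p = 0.0366), and its diclosan replicate 3, at 2.61, lay within the CCPB range of 2.59 to 2.67. Under the slide block, the values were 0.10, 0.23 and 0.10 for Etfb, Etfdh and Etfa, with adjusted p = 0.296, 0.202 and 0.708.

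Among peroxisomal members 7 of 11 rose with CCPB. Pex11a, which drives peroxisome division, was at 3.55, 3.61 and 3.67 with DMSO, 3.66, 3.78 and 3.74 with triclosan, 3.59, 3.63 and 3.64 with diclosan and 4.02, 3.95 and 3.92 with CCPB. CCPB arrays were the highest, and 2 of 3 triclosan arrays lay above the DMSO range. The rise with CCPB was 1.28-fold, 0.35 (95% interval 0.25 to 0.45), with adjusted p = 0.000613, and with slide as a block 0.33 (adjusted p = 0.0738). With triclosan the difference was 0.11 (adjusted p = 0.375). Abcd3, a transporter that brings branched and long acyl-CoA into the peroxisome, was at 5.30, 5.28 and 5.29 with DMSO, 5.35, 5.30 and 5.29 with triclosan, 5.23, 5.24 and 5.18 with diclosan and 5.51, 5.49 and 5.52 with CCPB. Its DMSO and triclosan arrays overlapped, the diclosan arrays lay below them and the CCPB arrays above. Abcd3 rose by 0.22 (95% interval 0.15 to 0.28) with adjusted p = 0.000944, or 0.27 with slide as a block (adjusted p = 0.0236).

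Pecr, the trans-2-enoyl-CoA reductase of peroxisomes, was at 5.52, 5.60 and 5.62 with DMSO, 5.60, 5.58 and 5.59 with triclosan, 5.63, 5.61 and 5.54 with diclosan and 5.77, 5.81 and 5.78 with CCPB. It rose by 0.21 (adjusted p = 0.0036; with slide as a block 0.28, adjusted p = 0.0404), and its dimmer probe rose by 0.34. Hsd17b4, a bifunctional hydratase and dehydrogenase of peroxisomal oxidation, was at 5.19, 5.15 and 5.18 with DMSO, 5.14, 5.22 and 5.23 with triclosan, 5.18, 5.18 and 5.27 with diclosan and 5.44, 5.38 and 5.37 with CCPB. The CCPB arrays were above all others, with diclosan replicate 3 next. Its rise was 0.23 (adjusted p = 0.00296), and 0.13 with slide as a block (adjusted p = 0.293).

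Eci2, an isomerase found in peroxisomes and mitochondria, was at 4.68, 4.70 and 4.67 with DMSO, 4.67, 4.65 and 4.73 with triclosan, 4.68, 4.66 and 4.62 with diclosan and 4.82, 4.84 and 4.85 with CCPB. Ech1, which isomerises dienoyl-CoA, was at 3.16, 3.18 and 3.13 with DMSO, 3.17, 3.07 and 3.11 with triclosan, 3.17, 3.14 and 3.10 with diclosan and 3.28, 3.28 and 3.38 with CCPB. For both, CCPB stood above every other array, with rises of 0.16 and 0.16 and adjusted p = 0.00754 and 0.0189. In the fit with slide, Eci2 was at 0.21 and Ech1 at 0.22, with adjusted p = 0.0714 and 0.14. Decr2, the dienoyl-CoA reductase of peroxisomes, rose by 0.19 (adjusted p = 0.0423) and had adjusted p = 0.172 with slide as a block.

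Ehhadh, Acaa1a and Acaa1b did not pass without the slide term. Ehhadh, another bifunctional enzyme of peroxisomal oxidation, was at -1.99, -1.77 and -1.87 with DMSO, -2.15, -1.77 and -1.66 with triclosan, -1.92, -1.82 and -2.01 with diclosan and -1.83, -1.75 and -1.85 with CCPB. The arrays of each group spread over those of the others, and the difference of CCPB from DMSO was 0.069 (95% interval -0.18 to 0.32), the widest interval among the members, or 0.22 with slide as a block (adjusted p = 0.642). Acaa1a and Acaa1b, the peroxisomal thiolases, differed by 0.014 and 0.011 between CCPB and DMSO. With slide as a block, they were at 0.23 and 0.26, with adjusted p = 0.116 and 0.0436. The 2 thiolases are close paralogs, and the array does not show how far their probes cross-react.

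The difference between CCPB and DMSO changed sign with slide as a block for 7 members, Cat, Acadl, Acads, Angptl4, Bdh1, Crot and Hadhb, of which 0 passed in either fit. Cat, the catalase that removes the hydrogen peroxide that peroxisomal oxidation makes, was at 2.15, 2.15 and 2.13 with DMSO, 2.11, 2.13 and 2.17 with triclosan, 2.07, 2.15 and 1.79 with diclosan and 2.04, 2.04 and 2.03 with CCPB. All CCPB arrays lay below all DMSO arrays, and diclosan replicate 3 lay below every other array. The difference of CCPB from DMSO was -0.10 (95% interval -0.27 to 0.065) (adjusted p = 0.328), and 0.22 with slide as a block (adjusted p = 0.0783). Between diclosan and CCPB, Cat passed with the block alone, -0.25 with adjusted p = 0.0165 against 0.784 without it. With the block, that difference rests on diclosan replicate 3 alone.

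**Figure D2:**
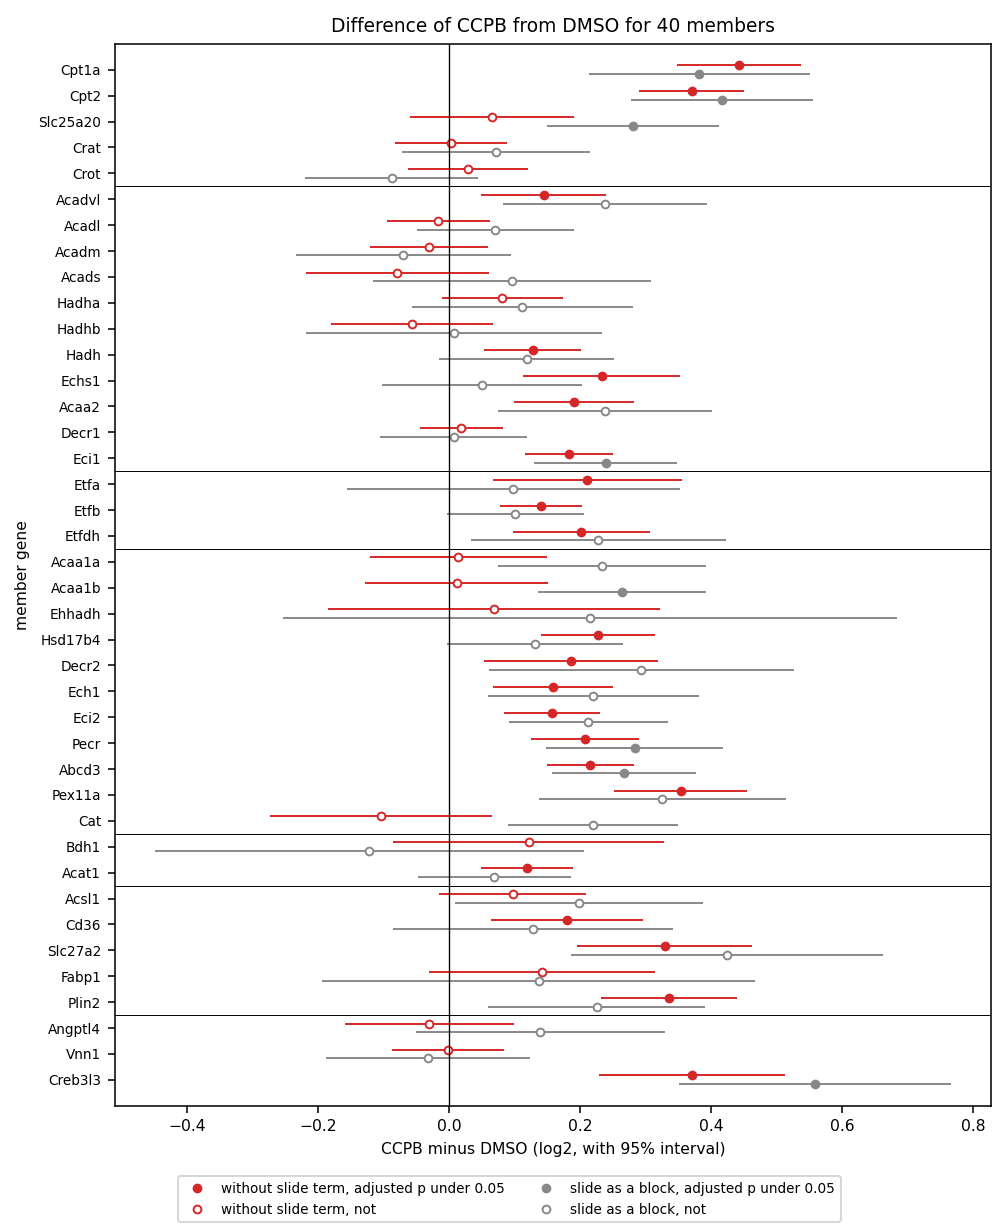
Difference between CCPB and DMSO (log2, horizontal axis) for 40 members with 95% intervals, without the slide term (red) and with slide as a block (grey), where filled points have an adjusted p under 0.05. The red points are filled for 22 members and the grey ones for 8, and the grey intervals are wider. Cat lies at -0.10 in red and 0.22 in grey.

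Of the ketone body genes, Acat1 rose and Bdh1 did not. Acat1, the mitochondrial acetoacetyl-CoA thiolase that joins acetyl-CoA units for ketogenesis, was at 3.47, 3.43 and 3.44 with DMSO, 3.41, 3.43 and 3.43 with triclosan, 3.40, 3.38 and 3.44 with diclosan and 3.59, 3.53 and 3.58 with CCPB. The CCPB arrays lay above the others, a rise of 0.12 (95% interval 0.049 to 0.19) with adjusted p = 0.0206, which was 0.069 with slide as a block (adjusted p = 0.542). Bdh1, which interconverts acetoacetate and beta-hydroxybutyrate, was at -1.69, -1.68 and -1.48 with DMSO, -1.88, -1.62 and -1.74 with triclosan, -1.64, -1.77 and -1.46 with diclosan and -1.51, -1.55 and -1.43 with CCPB. Diclosan replicate 3 and DMSO replicate 3 lay inside the CCPB range. The difference of Bdh1 between CCPB and DMSO was 0.12 (95% interval -0.085 to 0.33), and turned to -0.12 with slide as a block. A dimmer Bdh1 probe, not the one used, differed by -0.30 with adjusted p = 0.0063, so the probes disagreed in direction.

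Of the genes of uptake, binding, activation and storage, 3 of 5 rose with CCPB and 0 with slide as a block. Slc27a2, the very-long-chain acyl-CoA synthetase and fatty acid transport protein, was at 4.33, 4.50 and 4.39 with DMSO, 4.36, 4.52 and 4.53 with triclosan, 4.38, 4.44 and 4.32 with diclosan and 4.79, 4.71 and 4.72 with CCPB. Plin2, the coat protein of lipid droplets, was at 5.42, 5.40 and 5.49 with DMSO, 5.37, 5.46 and 5.49 with triclosan, 5.40, 5.40 and 5.51 with diclosan and 5.77, 5.74 and 5.80 with CCPB. In both, every CCPB array exceeded every other array. Slc27a2 rose 1.26-fold, 0.33 (95% interval 0.20 to 0.46), with adjusted p = 0.00397, and had 0.42 with slide as a block (adjusted p = 0.0678). Plin2 rose 1.26-fold, 0.34 (95% interval 0.23 to 0.44), with adjusted p = 0.000913, and had 0.23 with slide as a block (adjusted p = 0.141). Cd36, a fatty acid translocase, rose by 0.18 (adjusted p = 0.0292; adjusted p = 0.532 with slide as a block), and its dimmer probe differed by 0.050.

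Acsl1 and Fabp1 did not pass. Acsl1, the main long-chain acyl-CoA synthetase of liver, was at 4.50, 4.62 and 4.68 with DMSO, 4.59, 4.58 and 4.54 with triclosan, 4.61, 4.58 and 4.49 with diclosan and 4.74, 4.67 and 4.69 with CCPB. DMSO replicate 3 lay inside the CCPB range, and the difference was 0.10 (95% interval -0.015 to 0.21) with adjusted p = 0.174, or 0.20 with slide as a block (adjusted p = 0.255). Fabp1, the liver fatty acid binding protein, was at 2.41, 2.57 and 2.51 with DMSO, 2.50, 2.53 and 2.75 with triclosan, 2.40, 2.62 and 2.52 with diclosan and 2.59, 2.63 and 2.69 with CCPB. The CCPB arrays were above the DMSO arrays but overlapped with triclosan and diclosan, and the difference from DMSO was 0.14 (95% interval -0.031 to 0.31) with adjusted p = 0.195, or 0.14 with slide as a block (adjusted p = 0.68).

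Of the secreted, surface and regulatory targets, Creb3l3 alone rose with CCPB. Creb3l3, a liver transcription factor of the fasting response also known as CREBH, was at 3.15, 3.27 and 3.17 with DMSO, 3.31, 3.30 and 3.36 with triclosan, 3.20, 3.29 and 3.06 with diclosan and 3.50, 3.65 and 3.55 with CCPB. The CCPB arrays lay above all others, and diclosan replicate 3 was the lowest of the 12. The rise was 1.29-fold, 0.37 (95% interval 0.23 to 0.51), with adjusted p = 0.00295, and 0.56 with slide as a block (adjusted p = 0.016). Angptl4, a secreted inhibitor of lipoprotein lipase, was at 5.72, 5.60 and 5.66 with DMSO, 5.69, 5.57 and 5.57 with triclosan, 5.47, 5.54 and 5.33 with diclosan and 5.65, 5.63 and 5.61 with CCPB. Its 3 diclosan arrays lay below the other 9. The difference of diclosan from DMSO, -0.21 (95% interval -0.34 to -0.085), had adjusted p = 0.272, and that of CCPB was -0.03 (95% interval -0.16 to 0.10), or 0.14 with slide as a block (adjusted p = 0.435). Vnn1, the pantetheinase of the cell surface, differed from DMSO by -0.024, -0.058 and -0.0018 with triclosan, diclosan and CCPB, the last at -0.032 with slide as a block.

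**Figure D3:**
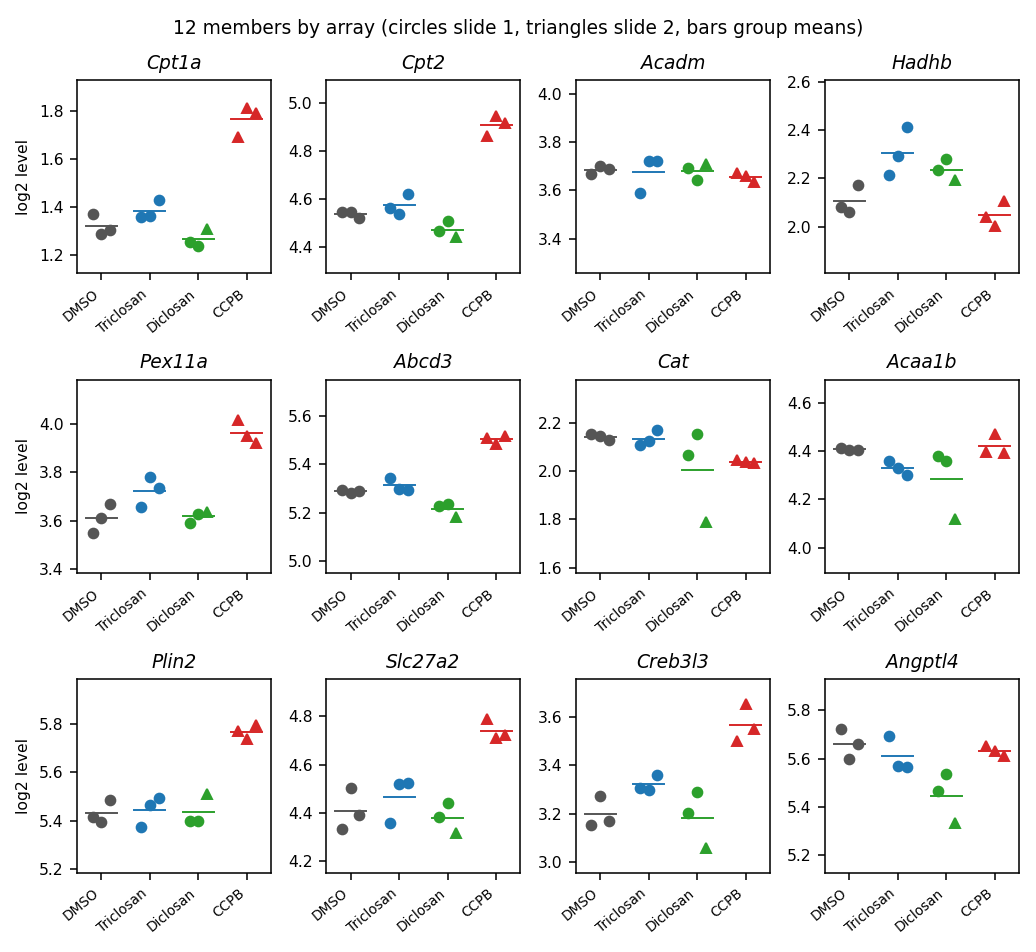
Log2 level of 12 members on each array (points; circles for slide 1, triangles for slide 2) with the mean of each group (bars); each panel has its own vertical origin. The CCPB points are apart from the rest for Cpt1a, Cpt2, Pex11a, Abcd3, Plin2, Slc27a2 and Creb3l3, not for Acadm or Angptl4, and diclosan replicate 3 is the lowest point for Cat and Acaa1b.

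At the same dose and time, the compounds differ by hydroxyl group and chlorination, and all 3 pairs were compared. Between triclosan and diclosan, 0 of 40 members passed (0% of all genes), with 8 at an unadjusted p under 0.05 (6.83% of all genes) and 10 without overlap (9.94% of all genes). The differences ran from -0.13 to 0.16, with interval bounds from -0.34 to 0.31. The smallest adjusted p among them belonged to Decr1, 0.10 (95% interval 0.032 to 0.16), with adjusted p = 0.587. For Cpt1a it was 0.11 (95% interval 0.02 to 0.21) and for Cpt2 0.10 (95% interval 0.022 to 0.18), higher with triclosan.

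CCPB, which has no hydroxyl group, was then compared with each phenol. Of 40 members, 18 were higher with CCPB than with triclosan (11.0% of all genes were) and 1, Hadhb, was lower (9.48%). Under the slide block, 2 were higher with CCPB, Cpt2 and Acaa1b (0.643% of all genes). Against diclosan, 18 were higher with CCPB (6.27% of all genes) and 1, again Hadhb, was lower (8.10%). In the fit with slide, 17 were higher with CCPB than with diclosan (2.44%), 12 of them among the 18. The comparisons share the CCPB arrays. With slide as a block, the difference from diclosan rests on diclosan replicate 3 alone, since the other diclosan arrays only set the slide effect. Cpt1a was 1.3-fold higher than with triclosan and 1.41-fold higher than with diclosan, with adjusted p = 0.000624 and 0.000131. With slide as a block, the adjusted p of Cpt1a was 0.0812 against triclosan, which did not pass, and 0.00449 against diclosan. Cpt2 was 1.26-fold and 1.35-fold higher, with adjusted p = 0.000485 and 0.000106, and with slide as a block adjusted p = 0.0313 and 0.00287. Without CCPB replicate 3, the 19 members that differed between triclosan and CCPB became 12.

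Only slide 2 holds both CCPB and another group, and there the other group is a single array. On that slide, all 3 CCPB arrays lay above diclosan replicate 3 for 21 of the 22 members that rose against DMSO, with Etfa as the exception, and for 65.2% of the 2903 genes that rose. Over all 40 members it was 35, against 31.3% of all genes, and 3 members (Crot, Acadm and Hadhb) lay below. The median of CCPB minus diclosan replicate 3 was 0.24 over the 22 members. A fit to slide 2 alone called 0 members and 0 of all genes, with 22 of 40 members at an unadjusted p under 0.05, as were 3463 of the 20359 genes or transcripts (17%). Diclosan is a single array in that fit, assumed to vary like the CCPB arrays. Diclosan replicate 3 also differed from the other diclosan arrays, most for Cat (-0.32), Acaa1b (-0.25), Bdh1 (0.24), Acaa1a (-0.22) and Slc25a20 (-0.22), and whether slide or culture did this was not tested.

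Some markers of other liver cells also differed between CCPB and DMSO, and the sums below are not adjusted for slide. For stellate cells and fibroblasts (8 of 12 markers measured) the summed linear level was 14.3 to 15.5 with DMSO and 9.29 to 10.3 with CCPB. That sum was mostly Tagln, at 11.6 to 13.4 and 7.15 to 8.10, and the other 7 markers summed to 2.05 to 2.72 with DMSO and 2.13 to 2.23 with CCPB. Of the 8, Tagln alone fell and Acta2 alone rose. For endothelial cells (6 of 11) it was 8.58 to 9.02 and 10.2 to 10.5, and for macrophages (6 of 14) 5.14 to 5.75 and 5.89 to 6.37. Vwf and Lyz2 made up most of these sums, and without them the sums were 0.706 to 0.773 and 1.04 to 1.09 for endothelial cells and 0.811 to 1.11 and 1.02 to 1.15 for macrophages. Cholangiocyte markers (4 of 8) summed to 2.89 to 3.07 and 3.53 to 3.63, and adipocyte markers (3 of 7) to 8.58 to 8.60 and 8.52 to 9.58. The adipocyte ranges overlapped. Of 6 endothelial markers 3 rose, and of 6 macrophage markers 1, or 1 and 0 with slide as a block. Of 4 cholangiocyte markers 2 rose and 1 fell, and of 3 adipocyte markers 1 fell. With slide as a block, 0 of these passed, and 1 stellate cell marker rose and 1 fell. Of all genes tested, 14.3% rose and 14.0% fell, or 1.66% and 1.80% with slide as a block. Of the same lists, Pecam1, Csf1r, Krt19 and Fabp4 were not kept, while Cdh5, Cd68, Epcam and Adipoq were. Markers not kept had no probe or none well above background on every array of any group. The part of other cells in the member differences was not tested, and in bulk RNA fewer cells of a type cannot be told apart from less RNA per cell.

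Genes beside the members were counted in 5 lists of related pathways, to be read against the shares of all genes that rose and fell with CCPB, 14.3% and 14.0%, or 1.66% and 1.80% with slide as a block. With triclosan or diclosan against DMSO, 0 of 104 genes tested in these lists passed. With CCPB, 16 of 28 other fatty acid oxidation enzymes rose and 2 fell (4 and 0 with slide as a block), with a median difference of 0.13. Acox2, the oxidase of branched chains and bile acid precursors, was at -0.87, -0.68 and -0.86 with DMSO, -0.50, -0.56 and -0.63 with triclosan, -0.62, -0.73 and -0.54 with diclosan and -0.06, 0.05 and 0.04 with CCPB. The CCPB arrays stood well above the rest, a 1.76-fold rise of 0.81 (95% interval 0.66 to 0.97) with adjusted p = 5.8e-05, and 0.68 with slide as a block (adjusted p = 0.0186). Phyh, which starts the alpha-oxidation of phytanic acid, rose 1.33-fold and Cpt1b, the muscle form of Cpt1a, 1.37-fold, with adjusted p = 7.0e-05 and 0.000185, and 0.0158 and 0.0394 with slide as a block. Phyh also differed from DMSO by 0.18 with triclosan and 0.15 with diclosan, at adjusted p = 0.118 and 0.235.

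Among 28 other PPARalpha targets, 11 rose with CCPB and 1 fell (7 and 0 with slide as a block), led by Acot4, Pdk4 and Cyp4a3. These encode an acyl-CoA thioesterase, the kinase that shuts pyruvate dehydrogenase and a fatty acid omega-hydroxylase. They rose 1.38-fold, 2.16-fold and 1.54-fold, each with an adjusted p under 0.05 in both fits. Pdk4 was dim, with DMSO lower than Ehhadh and Bdh1, at -2.42, -2.71 and -2.72 with DMSO and -1.62, -1.34 and -1.55 with CCPB. Among 21 peroxins and peroxisomal carriers, 6 rose and 1 fell (2 and 0 with slide as a block), with Pxmp4, a peroxisomal membrane protein, at 0.25 (95% interval 0.17 to 0.34), or 0.33 with slide as a block (adjusted p = 0.0306). Mpv17, a membrane channel protein, rose by 0.16 and did not pass with slide as a block, at adjusted p = 0.261.

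Of 9 other ketone body genes, 2 rose and 0 fell (1 and 0 with slide as a block). Slc16a6, the transporter that exports ketone bodies from hepatocytes, was at 1.03, 1.04 and 1.15 with DMSO, 1.26, 1.26 and 1.29 with triclosan, 1.12, 1.21 and 1.22 with diclosan and 1.53, 1.60 and 1.63 with CCPB, with CCPB above all others, a 1.43-fold rise with adjusted p = 8.8e-05 (0.0224 with slide as a block). Acat2, the cytosolic thiolase of sterol synthesis, was at 4.49, 4.49 and 4.52 with DMSO, 4.28, 4.27 and 4.33 with triclosan, 4.21, 4.15 and 4.24 with diclosan and 4.54, 4.59 and 4.67 with CCPB. Every triclosan and diclosan array lay below every DMSO and CCPB array, with differences from DMSO of -0.21 and -0.30 at adjusted p = 0.106 and 0.0624.

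Of 18 genes for PPARalpha and its partners, 2 rose and 2 fell with CCPB, near the shares of all genes, and 0 passed with slide as a block. Pparg, the receptor that dominates in fat, differed from DMSO by -0.26 (95% interval -0.36 to -0.15) (adjusted p = 0.00361), Rxrg by 0.38 and Rxrb by -0.27, the last 2 being partner receptors. With slide as a block, the values were -0.21, 0.15 and -0.0094, with adjusted p = 0.218, 0.581 and 0.961.

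**Figure D4:**
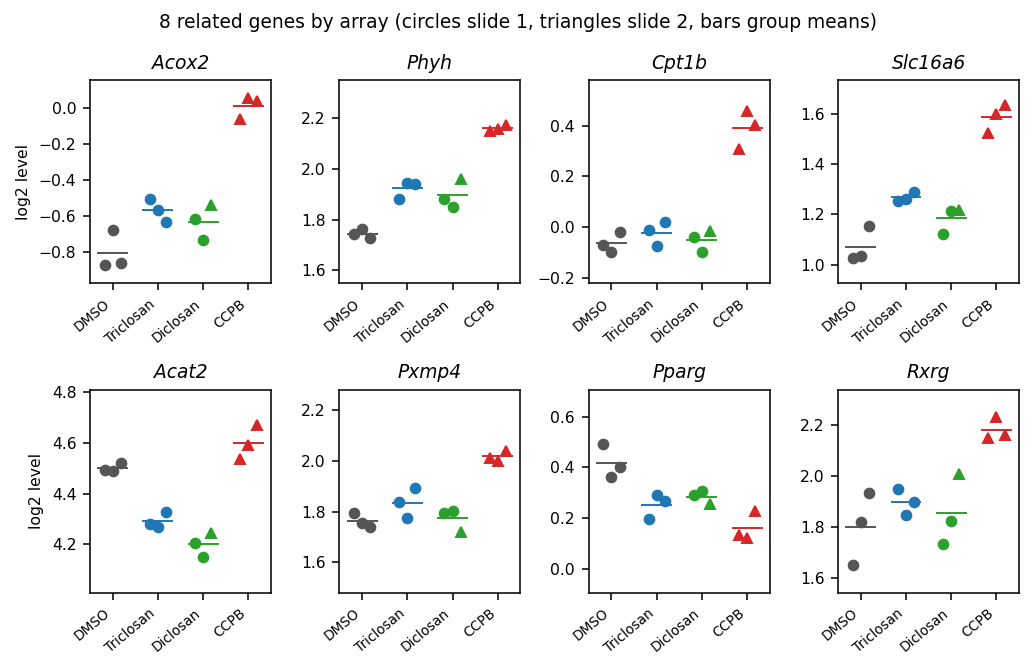
Log2 level of 8 genes of the related lists on each array (points; circles for slide 1, triangles for slide 2) with group means (bars). CCPB points are the highest for Acox2, Phyh, Cpt1b, Slc16a6, Pxmp4 and Rxrg, and triclosan and diclosan points are the lowest for Acat2.

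Promoter sequences were read for the members because PPARalpha with RXR binds direct repeats of AGGTCA with 1 base between the copies. RefSeq windows on the build GRCr8, from 250 bases before to 50 after the gene start, were found for 36 of the 41 members. Both strands were searched, allowing 2 mismatches in the 12 letters of the repeat. A match was found in 9 of the 36 members, or 25%, and in 3.77% of all 33469 windows. It was present in 5 of 20 members that rose with CCPB and in 4 of 15 that were tested and did not. The stretches are shown because they are what the members share or lack in sequence; they are written 5′ to 3′ on the strand of the gene, with the matched bases in capitals. The first group has 1 mismatch, and 0.439% of all windows have a match at least as close.

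Fabp1 (chr4:104749239-104749299, plus strand, from 77 bases before the start, repeat on the opposite strand): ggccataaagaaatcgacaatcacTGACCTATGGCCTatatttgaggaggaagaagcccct
Acadvl (chr10:55236702-55236730, minus strand, from 17 bases before the start): gggagaagAGGTCAGTGGTCAaggcttca

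Of these, Acadvl rose with CCPB and Fabp1 did not pass. Fabp1 is a classic PPARalpha target in rat liver. The next stretches have 2 mismatches and belong to members that rose with CCPB.

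Slc27a2 (chr3:134258001-134258061, plus strand, from 76 bases before the start, opposite strand): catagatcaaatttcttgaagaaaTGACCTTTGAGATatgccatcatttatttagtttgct
Creb3l3 (chr7:9273102-9273162, plus strand, from 194 bases before the start): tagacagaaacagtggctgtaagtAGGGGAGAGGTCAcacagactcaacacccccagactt
Echs1 (chr1:204333625-204333685, minus strand, from 155 bases before the start, opposite strand): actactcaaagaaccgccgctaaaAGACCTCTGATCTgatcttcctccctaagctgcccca
Etfa (chr8:64788083-64788143, minus strand, from 154 bases before the start, opposite strand): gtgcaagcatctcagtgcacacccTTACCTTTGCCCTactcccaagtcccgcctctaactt

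Members with 2 mismatches that did not pass against DMSO were Cat, Crat and Slc25a20, and Cat and Crat are shown for comparison.

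Cat (chr3:110329659-110329719, minus strand, from 169 bases before the start): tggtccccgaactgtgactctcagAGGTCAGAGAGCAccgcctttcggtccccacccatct
Crat (chr3:34087286-34087346, minus strand, from 223 bases before the start): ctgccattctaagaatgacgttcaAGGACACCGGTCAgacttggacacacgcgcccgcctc

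Cpt1a, Cpt2, Pex11a, Abcd3 and Plin2, which rose with CCPB, had no such match in their windows, which says nothing of sites elsewhere. Hadha and Hadhb lie head to head, with 300 bases between their starts on opposite strands of chromosome 6. The closest repeat between them has 3 mismatches and is shown once, on the strand of Hadha.

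Hadha (chr6:31907582-31907642, plus strand, from 195 bases before the start): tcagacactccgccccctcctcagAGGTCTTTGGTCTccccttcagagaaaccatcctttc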

How the data were processed

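Gene expression was measured on 12 single-colour arrays, 3 for each of 4 groups taken from the sample labels. Per the file headers, the authors' deposited scanner files hold a linear intensity per spot made by Agilent Feature Extraction 10.7.1.1, background-subtracted and detrended within the array and not scaled between arrays. Per the file headers, other columns hold deposited spot flags. The deposited table of the authors' values holds an intensity that correlated with the scanner values at 0.999999 or more on each array, and served as an alternative.

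Non-uniform spots (1 to 8 per array) were left out, and spots of a probe were averaged as log2. Each array's 75th percentile was then subtracted, so a shift shared by all transcripts of an array would not be seen. A shift of bright transcripts alone would remain in the values and was not tested for. Most members lie above that percentile. Of 45579 probes, 24254 carried the well-above-background flag throughout some group's 3 arrays. Probe accessions were matched to RefSeq for names only, which named 21218 probes, and the brightest kept probe stood for a gene. A single linear model over all groups was fitted (limma 3.58.1, R 4.3.3, version 1.17.8 of data.table), two-sided, with Benjamini-Hochberg adjustment over 20359 genes or transcripts and a threshold of 0.05. Intervals are 95% and unadjusted. The number of arrays limits the precision. Code was tested on simulated data.

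The members and the gene lists were chosen with earlier results of these data known. Per-array values are given for the 16 called members with the smallest adjusted p and for 9 members named by role, and up to 3 genes of each related list are named by smallest p against DMSO, of which 1 is not reported here. Alternatives changed the scaling, the filter, the probe choice, the blocks and the arrays used. The planned background correction of mean signals was run on median signals, the column used here, and was added with 2 others after seeing the data: leaving out population outlier spots, and a fit without diclosan replicate 3. Columns of other samples numbered 0. Promoter windows are RefSeq's on GRCr8.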

Additional observations from a re-analysis of the deposited data

How the results depend on the processing

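The count of members that rose or fell was 0 for triclosan against DMSO, diclosan against DMSO and triclosan against diclosan under every alternative run. In order, CCPB against DMSO, triclosan against CCPB and diclosan against CCPB had 22, 19 and 19 members past the threshold. Centring arrays on the median gave 7, 5 and 7, and no filter on dim probes gave 11, 6 and 10; the cause was not tested. Slide as a block gave 8 and 2 for the first pair, and slide as a random block 12 and 7. A replicate block gave 21, 19 and 17. With the replicate block and slide together, 2, 0 and 8 remained in count. A fit to the compared groups only gave 9 for diclosan against CCPB, where fewer arrays set the spread, and slide 2 alone gave 0. Leaving out 1 array gave 15 to 18 members for CCPB against DMSO, 12 to 17 for triclosan against CCPB and 14 to 20 for diclosan against CCPB, lowest in the first pair without CCPB replicate 3. The fit without diclosan replicate 3, added after seeing the data, gave 23 and 21 for the first pair. For CCPB against DMSO, that fit and the fit to the compared groups only each had 22 members higher and 1 lower. Cpt2 and Creb3l3 kept their rise against DMSO under all 21 alternatives run for it, Cpt1a under all but the replicate block with slide, and 0 results changed sign while past the threshold.

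The median member difference of CCPB from DMSO, 0.14, was 0.11 with median centring, 0.11 with quantile normalization, 0.21 with slide as a block and 0.22 with the replicate block and slide, and 0.12 to 0.15 with 1 array left out. For triclosan minus CCPB it was -0.13, and became -0.094 with quantile normalization, -0.11 with the mean of all probes, -0.19 with slide as a block, -0.15 with slide as a random block and -0.19 with the replicate block and slide (-0.13 to -0.11 with 1 array left out). For diclosan minus CCPB it was -0.14, and became -0.21 with slide as a block or on slide 2 alone and -0.22 with the replicate block and slide. Slide as a block and slide 2 alone give the same estimate by construction, diclosan replicate 3 minus the CCPB mean. For triclosan minus DMSO, 0.010 became -0.012 with median centring and 0.0013 to 0.027 with 1 array left out. Same-numbered arrays of different groups correlated at -0.16 to 0.12 in their deviations from the group means, so the numbers were not taken to pair the samples. Ehhadh and Bdh1 had the lowest levels among the members but were well above background on all arrays. Without the slide term, their intervals were the widest.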
